A study of Homo sapiens with 4 samples.

Results

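Solute carrier (SLC) mRNAs were examined for enrichment by an antibody against N7-methylguanosine (m7G) in U2OS cells, a human osteosarcoma line. Members were all peaks whose listed gene name begins with SLC and a digit: 55 of the 4326 peaks of IP replicate 1 and 58 of the 4862 peaks of IP replicate 2, 113 of 9188 peaks in all. They named 58 of the 4368 listed genes, 43 in replicate 1 and 47 in replicate 2. The study holds 2 m7G immunoprecipitates (IP) and 2 inputs without antibody, all from poly(A) RNA of U2OS cells that received no treatment. The values are the authors' own per-peak values, called separately for each IP replicate. Each peak has a position on GRCh38, a fold of IP over input, a log10 p (the more negative, the stronger) and a false discovery rate. The inputs enter only through the authors' peak calls and per-peak values. Separate cultures are not named in the labels, so the spread between replicates may be technical. No read counts were given, so the depth behind a peak is unknown, and for a gene without a peak, absent m7G and low or absent expression cannot be told apart.

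SLC genes encode membrane proteins that carry nutrients, ions, metabolites and neurotransmitters across the plasma membrane and the membranes of mitochondria, the Golgi, the endoplasmic reticulum and vesicles. They are numbered by family, and most families share a kind of substrate. In mRNA, m7G is the cap at the 5′ end, where it recruits translation factors, and it has also been mapped at positions inside transcripts. Not every name that fits the rule is a transporter: SLC9A3R1 and SLC9A3R2 are older names of the scaffold proteins NHERF1 and NHERF2, and SLC2A4RG encodes a transcription factor. The other 55 genes encode transporters or their subunits.

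Shared peaks were those with a block that overlapped one of the other replicate on the same strand, by 1 bp or more. Of the SLC peaks, 37 of 55 in replicate 1 were shared (67.3%, Wilson 95% interval 54.1 to 78.2), against 62.6% of all replicate 1 peaks. In replicate 2, 36 of 58 were shared (62.1%, Wilson 49.2 to 73.4), against 55.9% of all replicate 2 peaks. Both shares for all peaks lie inside the SLC intervals, which cover counting error only. The overlaps made 36 shared peaks on 32 genes, while 11 genes had peaks in replicate 1 alone and 15 in replicate 2 alone. Thus 55.2% of the SLC genes with a peak had a shared one, against 48.4% of 4340 protein-coding genes with a peak. In all 20 SLC genes with exactly 1 peak in each table, those peaks overlapped by 1 bp or more. The same share over all genes was not computed. Among these, SLC25A23, SLC25A28 and SLC30A5 were no longer shared if 50% reciprocal overlap was required.

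The transcription start region is shown for the 8 genes with the highest folds among the 13 whose shared peak had its midpoint within 200 nt of a RefSeq start in both replicates, since the cap is added there. Each line gives 70 bases upstream of the start in lower case and, in capitals, the first 30 transcribed bases, from RefSeq starts on GRCh38.p14.
SLC25A28, chr10:99620410-99620509, minus strand: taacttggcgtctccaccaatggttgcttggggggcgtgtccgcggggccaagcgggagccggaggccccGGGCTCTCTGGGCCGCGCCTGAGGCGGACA
SLC17A7, chr19:49441498-49441597, minus strand: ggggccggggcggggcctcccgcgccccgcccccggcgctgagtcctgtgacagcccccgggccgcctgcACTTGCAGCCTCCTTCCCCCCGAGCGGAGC
SLC25A10, chr17:81712214-81712313, plus strand: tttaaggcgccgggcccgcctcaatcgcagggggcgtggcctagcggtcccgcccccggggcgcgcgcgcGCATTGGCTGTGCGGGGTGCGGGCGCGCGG
SLC35E1, chr19:16572386-16572485, minus strand: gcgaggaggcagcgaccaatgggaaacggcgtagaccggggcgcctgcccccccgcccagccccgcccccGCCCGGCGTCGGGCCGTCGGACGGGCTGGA
SLC12A4, chr16:67968608-67968707, minus strand: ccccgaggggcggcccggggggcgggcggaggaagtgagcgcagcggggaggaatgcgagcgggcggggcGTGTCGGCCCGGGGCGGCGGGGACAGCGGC
SLC36A4, chr11:93197962-93198061, minus strand: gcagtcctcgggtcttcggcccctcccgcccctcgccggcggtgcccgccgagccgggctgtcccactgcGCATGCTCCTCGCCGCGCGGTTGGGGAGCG
SLC29A4, chr7:5282873-5282972, plus strand: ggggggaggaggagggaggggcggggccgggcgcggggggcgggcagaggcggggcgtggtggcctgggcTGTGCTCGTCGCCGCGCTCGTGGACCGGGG
SLC7A5, chr16:87869478-87869577, minus strand: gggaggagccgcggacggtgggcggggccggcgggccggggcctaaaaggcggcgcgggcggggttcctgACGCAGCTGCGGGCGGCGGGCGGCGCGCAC

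The nearest block of the peak lay 35 and 5 nt from that start on SLC25A28, 65 and 0 nt on SLC17A7, and 0 and 11 nt on SLC25A10 in replicates 1 and 2. The gaps were 33 and 33 nt on SLC35E1, 3 and 3 nt on SLC12A4, 16 and 46 nt on SLC36A4, 0 and 0 nt on SLC29A4, and 13 and 13 nt on SLC7A5. A gap of 0 means that a block holds the first transcribed base. The first 50 transcribed bases of the 13 genes were rich in G and C, with a median of 80% and a range of 66 to 86%, against a median of 64% over 22199 RefSeq starts of protein-coding genes. The motif GANGAN, searched on both strands of those 50 bases with overlapping matches counted once, occurred in 3 of the 13 (SLC36A4, SLC29A4 and SLC20A1), against 32.5% of all these starts. On the sense strand, which has the sequence of the RNA, it occurred in 0 of 13, against 18.7% of all starts. These matches describe only the 50 bases searched. The 22199 starts include those of genes without a peak. Starts of other genes with a shared peak near them were not compared, so neither value is shown to be particular to SLC genes.

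**Figure D1:**
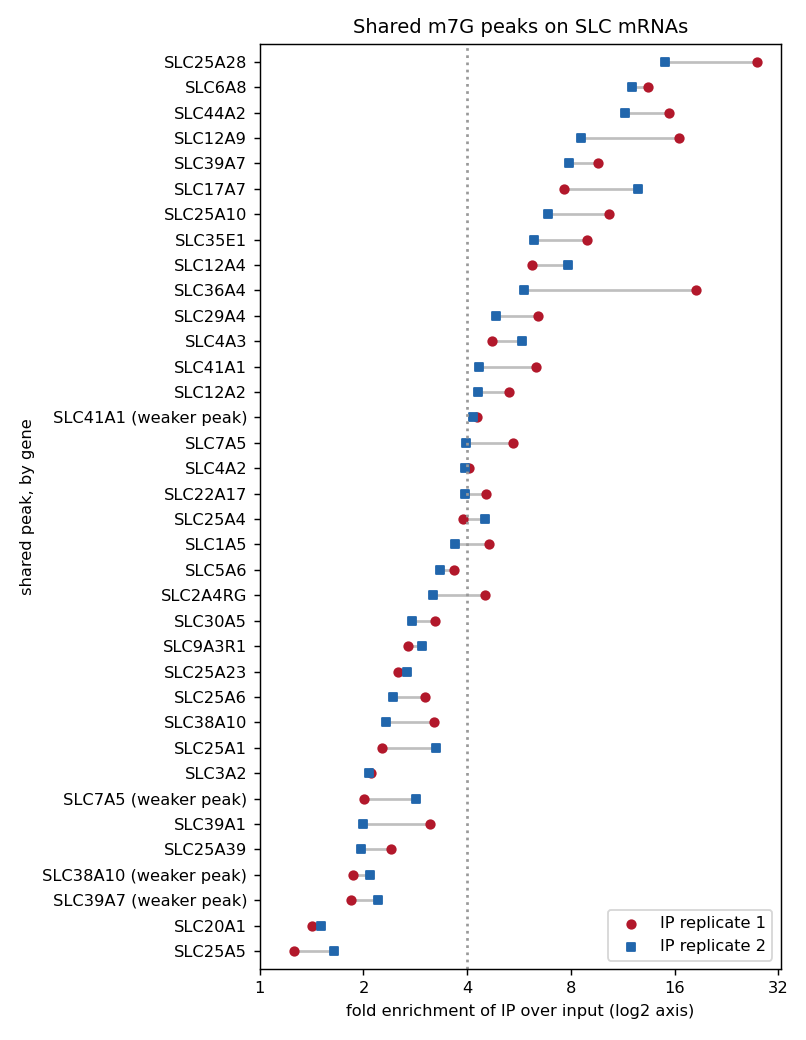
Fold enrichment of IP over input (log2 axis) of each of the 36 shared SLC peaks, with a circle for IP replicate 1, a square for IP replicate 2 and a dotted line at a fold of 4. SLC25A28, SLC6A8 and SLC44A2 are above 10 in both replicates, and SLC25A5 and SLC20A1 are below 2 in both.

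Mitochondrial carriers of family 25 move metabolites, nucleotides and metal ions across the inner mitochondrial membrane, and they held the shared SLC peak with the highest fold. SLC25A28, the iron importer mitoferrin 2, had a fold of 27.8 in replicate 1 and 15 in replicate 2 at chr10:99620135-99620404 on the minus strand (replicate 1 extent). Its midpoint lay 169 and 79 nt inside one of the RefSeq starts of the gene, although about 39 kb from the outer end of the annotated span (39016 and 38926 nt). The log10 p was -14.8 and -6.75, and the peak was no longer shared if 50% reciprocal overlap was required. SLC25A10, the dicarboxylate carrier, followed with 10.3 and 6.84 at chr17:81712266-81712503, plus strand, where the replicate 1 peak holds the annotated gene start.

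Other carriers of this family were weaker. SLC25A1, which exports citrate, had 2.26 and 3.24 at the gene start (midpoint 79 and 50 nt inside it), and SLC25A23, a calcium-regulated carrier of ATP-Mg and phosphate, had 2.52 and 2.68. ADP/ATP translocase genes carried shared peaks away from the gene start: SLC25A4 had 3.90 and 4.51, SLC25A6 3.02 and 2.44, and SLC25A5 1.26 and 1.64. The SLC25A6 peak lay 564 and 504 nt from the gene end. No peak was listed on SLC25A31, the testis form. SLC25A4 lay above SLC25A6 and SLC25A6 above SLC25A5 in both replicates. RefSeq annotates 9 pseudogene copies of SLC25A5 and 6 of SLC25A6, which also lies in the region shared by X and Y, so reads assigned to both genes are uncertain. SLC25A39, which carries glutathione, had 2.40 and 1.97 at 353 nt (replicate 1) and 368 nt (replicate 2) from the gene end. In all, 8 of 48 annotated family 25 genes had a shared peak (16.7%), against 10.5% of all protein-coding genes, and 5 more had a peak in 1 replicate alone, the highest on SLC25A15, the ornithine carrier, at 40-fold in replicate 2. That peak had a log10 p of -3.59, and its midpoint lay at -125 nt, upstream of the annotated start. RefSeq annotates 5 pseudogene copies of SLC25A15.

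Transporters of amino acids and related amines, which feed protein synthesis and nucleotide metabolism, had shared peaks on 6 of 60 annotated genes (10%), near the 10.5% of all protein-coding genes. SLC6A8, the creatine transporter, had 13.4 and 12 at chrX:153688297-153688656, plus strand, 551 and 596 nt inside the gene start. Its log10 p of -56.9 and -69.8 put it among the most significant SLC peaks, beside SLC7A5. A second SLC6A8 peak, 5.86-fold and 913 nt from the gene end, was listed in replicate 1 alone. RefSeq annotates the pseudogene SLC6A10P, a known copy of SLC6A8 with a symbol of its own, so its reads can be split. SLC36A4, an amino acid transporter of the proton-assisted family, had 18.5 and 5.83, a factor of 3.17 and the largest gap between replicates of any shared SLC peak.

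SLC7A5 and SLC3A2 encode the light and heavy chains of the large neutral amino acid exchanger. Both carried a shared peak with its midpoint close to a RefSeq start. SLC7A5 had 5.43 and 3.96 there, 177 and 147 nt inside the start, at chr16:87869165-87869494 on the minus strand in replicate 1, with log10 p of -60.2 and -38.5. A weaker shared peak of 2.01 and 2.85 lay 2361 and 2331 nt from the gene end. SLC3A2 had 2.10 and 2.07, 217 and 232 nt from its nearest RefSeq start, the smallest gap between replicates of any shared SLC peak (a factor of 1.01). Its replicate 1 peak had 2 blocks and began at chr11:62876855, upstream of that start. The start-proximal SLC7A5 peak was higher than that of SLC3A2, whose midpoint lay just beyond 200 nt, in both replicates. SLC1A5, the main glutamine transporter of many tumour cells, had 4.63 and 3.68, and SLC38A10 had 2 shared peaks of 3.20 and 2.32 and of 1.86 and 2.09. SLC6A9, a glycine transporter, had 3.95 in replicate 2 alone.

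Transporters of bicarbonate, chloride and sulfate, many of which set cell volume and pH, had shared peaks on 5 of 29 annotated genes (17.2%), against 10.5% of all protein-coding genes. SLC12A9, of the cation-chloride cotransporter family, had 16.5 and 8.57 at chr7:100866088-100866416, 760 and 686 nt from the gene end. SLC12A4, a potassium-chloride cotransporter, had 6.17 and 7.86 at the gene start, and SLC12A2, the sodium-potassium-chloride cotransporter, 5.29 and 4.29 at 235 and 325 nt from it. The anion exchangers SLC4A3 and SLC4A2 had 4.71 and 5.75, and 4.04 and 3.95. SLC12A9 was above the other 4 genes in both replicates, while the order of SLC12A4, SLC12A2 and SLC4A3 differed between replicates. SLC12A7, another potassium-chloride cotransporter, had 2.26 in replicate 2 alone.

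Zinc transporters had shared peaks on 3 of 24 annotated genes (12.5%), near the 10.5% of all protein-coding genes. These group shares rest on few genes and were not tested. SLC39A7, which releases zinc from the endoplasmic reticulum, had a 1-block peak of 628 nt with the same ends in both tables, chr6:33203810-33204437, which stops at the annotated gene end. Its fold there was 9.57 and 7.88, and a second shared peak upstream had 1.84 and 2.20. SLC30A5, which loads zinc into the secretory pathway, had 3.22 and 2.77, and SLC39A1, a plasma membrane zinc importer, 3.11 and 1.99. SLC41A1, a magnesium transporter, had 2 shared peaks of 6.32 and 4.33 and of 4.27 and 4.15. SLC31A1, the copper importer, had 3.86 in replicate 1 alone.

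Single genes carried the shared peaks of several other groups. SLC44A2, a choline transporter-like protein, had 15.4 and 11.5 at chr19:10643962-10644111, with identical ends in both tables and 520 nt from the gene end. SLC17A7, the vesicular glutamate transporter of neurons, had 7.62 and 12.5 at its gene start. Its log10 p of -4.30 and -4.29 was weaker than the SLC medians of -6.10 and -5.27, and of 6 neuronal markers NEFL was the only other one with a shared peak. SLC35E1, of the nucleotide sugar transporter family, had 8.88 and 6.25, and SLC29A4, a monoamine transporter, 6.42 and 4.84, both at gene starts. SLC22A17, a receptor for the iron-binding protein lipocalin 2, had 4.54 and 3.94, and SLC5A6, the sodium-dependent multivitamin transporter, 3.66 and 3.33. SLC20A1, a phosphate importer, was low at 1.42 and 1.51, and the scaffold gene SLC9A3R1 had 2.69 and 2.96. SLC2A4RG had 4.49 and 3.19. The gene ATRAID covers the SLC5A6 peak, and the antisense gene SLC9A3R1-AS1 the SLC9A3R1 peak, both on the opposite strand. No other annotated gene span covered a shared SLC peak. Beside SLC6A8, pseudogene copies that carry the gene's own symbol followed by P are annotated for the genes of 10 of the 36 shared peaks (SLC25A1, SLC25A5, SLC25A6, SLC25A39, SLC7A5 with both its peaks, SLC20A1, SLC29A4, SLC35E1 and SLC39A1), whose reads are uncertain to that extent.

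**Figure D2:**
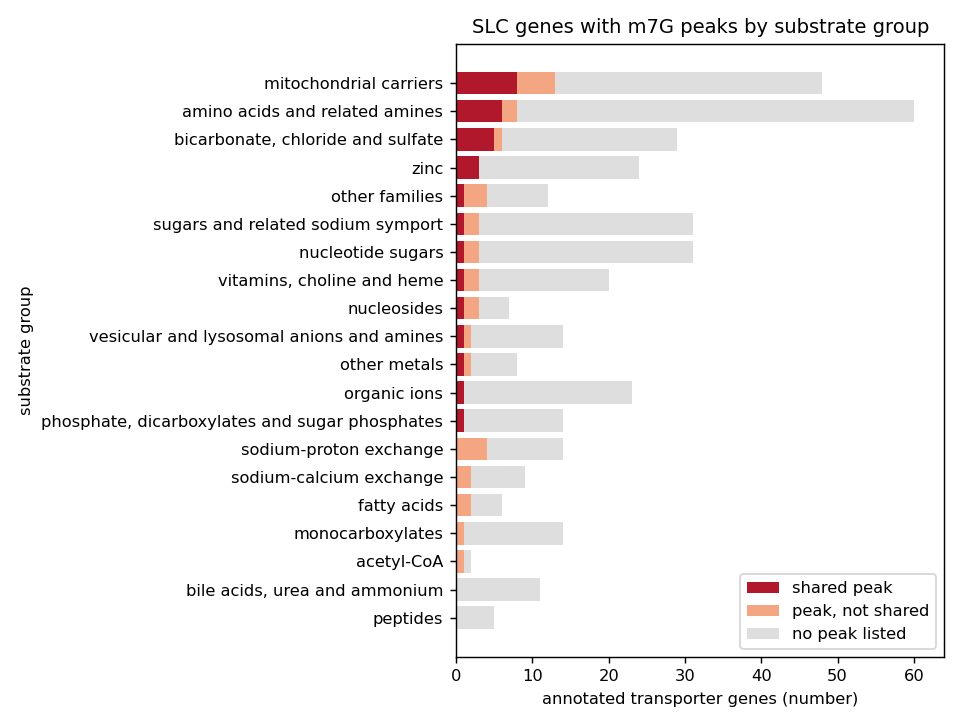
Number of annotated protein-coding SLC transporter genes in each substrate group with a shared peak, with a peak that was not shared, and with no peak listed. Mitochondrial carriers hold 8 of the 31 genes with a shared peak, amino acid transporters 6 and the bicarbonate, chloride and sulfate group 5.

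Over the whole family, 31 of 382 annotated protein-coding transporter genes with an SLC symbol had a shared peak (8.12%, Wilson 5.78 to 11.3), against 10.5% of all protein-coding genes. These 31 include SLC66A2, listed in the tables as PQLC1, and leave out the 2 non-transporters. In 6 more genes with an SLC symbol in RefSeq, a peak listed under an older name was not shared. A peak in either replicate was listed for 62 of the 382 and none for 320, against a peak on 4340 of 20056 protein-coding genes. Among genes with a peak in either table, 31 of 62 SLC genes (50%) had a shared one, against 48.4% of 4340 protein-coding genes. No shared peak was found in the groups of sodium-proton exchangers (14 genes), sodium-calcium exchangers (9), transporters of monocarboxylates (14), fatty acids (6), acetyl-CoA (2) and peptides (5), and transporters of bile acids, urea and ammonium (11). These groups are small beside a share of 10.5% over all protein-coding genes. No peak was listed on SLC2A1, the main glucose transporter, on the lactate and pyruvate transporters SLC16A1 and SLC16A3, on the cystine-glutamate exchanger SLC7A11, on the amino acid transporter SLC38A2 or on the zinc and iron importer SLC39A14.

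Other classes of membrane protein genes were set beside these by symbol. ABC transporters, which are driven by ATP, had a shared peak on 0 of 46 genes (Wilson upper limit 7.71%). P-type ATPases had 2 of 26 (7.69%, Wilson 2.14 to 24.1) and ion channels 6 of 168 (3.57%, Wilson 1.65 to 7.57). The organic anion transporters named SLCO, which the rule leaves out, had 2 of 12 (16.7%, Wilson 4.7 to 44.8). MFSD genes had 1 of 8 (12.5%, Wilson 2.24 to 47.1). TMEM genes, a symbol for transmembrane proteins of any kind, had 14 of 233 (6.01%, Wilson 3.61 to 9.83). For all protein-coding genes the share was 10.5%. It lay inside the intervals of P-type ATPases, SLCO and MFSD genes, and above those of ABC transporters, ion channels and TMEM genes. Expression was not measured here, and the differences between these classes were not tested. Cell type markers were looked up the same way, which describes peaks and cannot check cell identity. Of 12 mesenchymal or bone markers, 6 had a shared peak (50%, Wilson 25.4 to 74.6): COL1A1, COL5A1, COL6A1, FN1, SPARC and VIM. COL1A2, THY1, TWIST1 and the osteoblast genes RUNX2, ALPL and BGLAP had none. Haematopoietic and hepatocyte markers had 0 of 7 and 0 of 5 (Wilson upper limits 35.4% and 43.4%). Epithelial markers had 2 of 8 (CLDN4 and KRT18, Wilson 7.15 to 59.1), and neuronal markers 2 of 6 (Wilson 9.68 to 70). The 10.5% of all protein-coding genes lay inside all of these marker intervals except the mesenchymal or bone one.

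Across the 36 shared SLC peaks the median fold was 4.16, against 4.04 across 2606 other shared peaks. By replicate, the median log2 fold was 2.13 for SLC peaks and 2.05 for others in replicate 1, and 1.98 and 1.92 in replicate 2. The SLC medians of the replicates differed by more than SLC and other peaks did within either replicate, and the sign of that difference turned under other pairing rules (-0.02 log2 with 50% reciprocal overlap). Both replicates reached 4-fold or more at 15 of the 36 (41.7%, Wilson 27.1 to 57.8), against 42.8% of all shared peaks. The weakest SLC peaks inside that threshold were those of SLC41A1 (4.27 and 4.15) and SLC12A2, and just outside it were SLC7A5 (5.43 and 3.96) and SLC4A2 (4.04 and 3.95). SLC peaks had a median joined length of 180 nt in replicate 1 and 164 nt in replicate 2, against 151 nt for other peaks in each. More than 1 block was listed for 22 of 55 SLC peaks in replicate 1 (40%), against 30.7% of other peaks, and for 19 of 58 in replicate 2 (32.8%), against 34.7%.

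**Figure D3:**
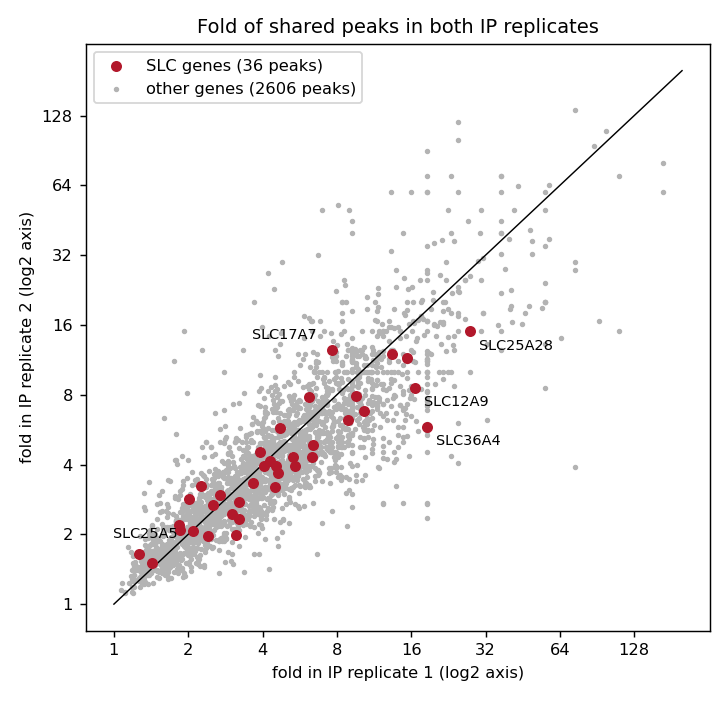
Fold of shared peaks in IP replicate 1 against IP replicate 2 (both log2 axes), with SLC peaks in red, other peaks in grey and a line of equality. The 36 SLC peaks follow the line, with SLC36A4 the farthest from it.

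The folds of shared SLC peaks were close between replicates. Their median gap was a factor of 1.25 (0.32 in log2), against 1.23 (0.30 in log2) for other shared peaks. Of the 36 peaks, 30 (83.3%) were within a factor of 1.5, against 75.9% of other shared peaks. The widest gaps were on SLC36A4, SLC12A9 (a factor of 1.93) and SLC25A28 (1.85), all higher in replicate 1. Across the 36 peaks, which share the same libraries, Spearman's rho was 0.924 and Pearson's r of log2 folds was 0.908, given as a description. The fold was higher in replicate 1 at 24 of the 36 (66.7%), against 55.3% of other shared peaks.

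Position along the gene was measured from the midpoint of each peak's joined blocks, in genomic nt. The midpoint lay within 200 nt of the outer annotated gene start for 11 of the 36 shared SLC peaks (30.6%, Wilson 18 to 46.9), against 22.6% of all shared peaks. With a window of 100 nt the share was 8.33% for SLC peaks and 9.68% for other shared peaks, and with 500 nt it was 44.4% and 34.8%. A block held the annotated start itself at 4 SLC peaks (11.1%), against 15.6% of other shared peaks. Several SLC genes have more than 1 RefSeq start. Measured from the nearest of them, 14 of 36 lay within 200 nt (38.9%, Wilson 24.8 to 55.1), against 24.9% of all shared peaks, a share that sits at the lower edge of the SLC interval. Within 500 nt of the nearest start lay 20 of 36 (55.6%, Wilson 39.6 to 70.5), against 37.9% of other shared peaks. The direction of the difference thus varied with the measure of position, and none of these differences was tested. The additional genes within 200 nt of the nearest start were SLC25A28, SLC22A17 and SLC5A6. On SLC22A17 and SLC5A6 the peak also reached upstream of that start, still inside the annotated gene. The midpoints of 5 of the 36 (13.9%) lay within 1000 nt of an annotated gene end, on SLC44A2, SLC12A9, SLC39A7, SLC25A6 and SLC25A39, against 15.3% of other shared peaks. The median fold was 5.08 for the 14 near a start and 3.45 for the other 22, beside 5.78 and 3.53 for other genes.

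**Figure D4:**
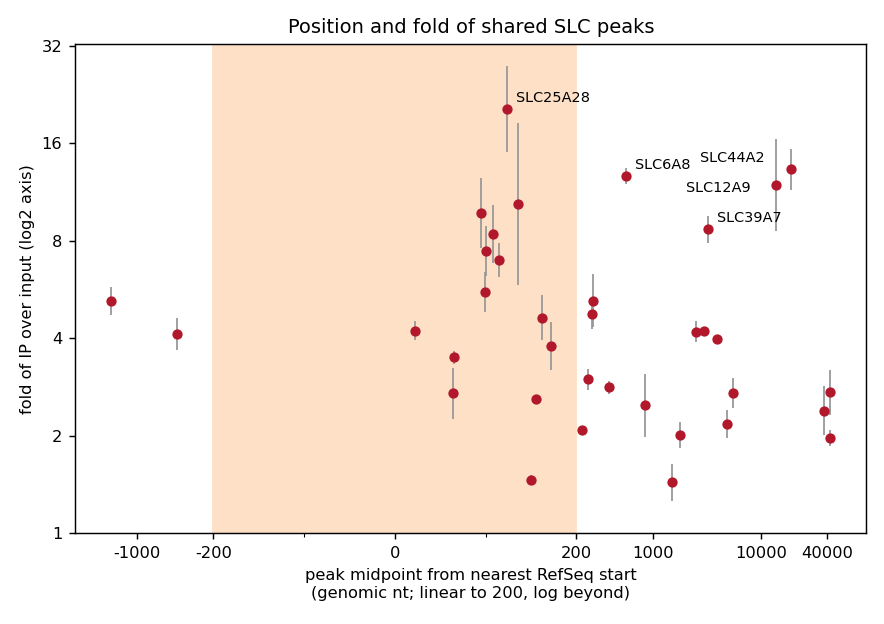
Midpoint of each shared SLC peak from the nearest RefSeq start (genomic nt, linear to 200 and log beyond, positive downstream of that start) against its fold (log2 axis), with a point at the geometric mean of both replicates, a bar between the replicates and shading within 200 nt of the start. The negative points, SLC1A5 and SLC4A3, lie inside their genes. SLC25A28 is highest within the shading, and SLC6A8, SLC44A2, SLC12A9 and SLC39A7 are the highest outside it.

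High folds were not confined to gene starts: SLC6A8, SLC44A2, SLC12A9 and the stronger SLC39A7 peak had midpoints over 500 nt from any RefSeq start. They reached at least 7.88 in both replicates. The nearest edge of the SLC6A8 peak was 371 nt from the gene start in both. All 4 peaks were 1 block in both tables. Exon and UTR annotation was not used here, and distances include introns.

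Peaks listed in a single replicate had weaker significance than shared ones. The median log10 p of unshared SLC peaks was -4.80 in replicate 1 and -4.38 in replicate 2, against -6.85 and -7.13 for shared ones. Their folds were not lower in replicate 1, where the median was 5.21 for unshared peaks, against 4.49 for shared ones. In replicate 2 the medians were 3.34 and 3.95. Unshared peaks of other genes likewise had weaker p, with median log10 p of -4.38 and -4.50, against -7.47 and -8.27 for their shared peaks. The highest in replicate 1 alone were on SLC27A3, a fatty acid transport protein (23.1), SLC9A3, a sodium-proton exchanger (21.6, with 2 further peaks of 5.36 and 5.05), and SLC44A1, a choline transporter (15.1). In replicate 2 alone they were on SLC25A15, SLC9A7, a sodium-proton exchanger (8.33), and SLC27A4, a fatty acid transport protein (6.43). Pseudogene copies are annotated for SLC9A3 (3) and SLC9A7 (1), and the SLC9A7 peak had a log10 p of only -2.83. SLC18B1, a vesicular polyamine transporter, and SLC35B3, which carries the sulfate donor PAPS, both had exactly 13.2 in replicate 1, and the nucleoside transporter SLC29A1 and SLC16A13, of the monocarboxylate family, both had exactly 6.17.

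The remaining genes with a peak in 1 replicate alone had lower folds. In replicate 1 these were SLC25A29, which carries basic amino acids into mitochondria (4.34), the copper importer SLC31A1, the nucleoside transporter SLC29A2 (2.71) and the riboflavin transporter SLC52A2 (1.68). In replicate 2 they included the hexose transporters SLC2A8 (5.62) and SLC2A12 (3.04), the sodium-calcium exchangers SLC8A2 (5.50) and SLC24A1 (4.55 and 4.33), and the scaffold gene SLC9A3R2 (5.00). The mitochondrial carriers SLC25A11 for oxoglutarate (2.94), SLC25A16 (2.47) and SLC25A3 for phosphate (1.28) followed. SLC35B2, which carries PAPS into the Golgi, had 2.64 with a log10 p of -14.2, and SLC12A7 had a log10 p of -11.2, both stronger in significance than most shared SLC peaks of replicate 2. A further 11 peaks listed in 1 replicate lay on genes that also had a shared peak, among them SLC4A3 (5.24, replicate 2) and SLC38A10 (3.95, replicate 1).

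Identical folds recurred through the tables. Among folds of 10 or more, 18.5 was the commonest in replicate 1, on 67 peaks, and 6.17, which is 18.5 divided by 3, was listed for 67 peaks as well. In replicate 2 the commonest was 10, on 60 peaks, and 5.00 was listed for 85. The SLC36A4 fold of replicate 1 and the SLC25A15 fold of replicate 2 were whole multiples of these values. A small multiple or fraction of the value (1 to 3 times it divided by 1 to 5, or a whole multiple) was held by 5 of 55 SLC peaks in replicate 1 (9.09%), against 9.34% of other peaks, and by 4 of 58 in replicate 2 (6.90%), against 9.66%. The replicate 1 fold of 4.63 on SLC1A5, near 18.5 divided by 4, was not counted, so 5 is a minimum. Peaks of other genes were not recounted. SLC25A28 held such a value in both replicates. How these values arise was not tested.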

How the data were processed

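m7G enrichment was taken from 2 deposited tables, 1 for each IP replicate; the 4 samples were grouped by their titles. The submitters' processing notes name STAR and GRCh38. No source used here names the peak caller. Per the file headers, the authors give each peak a p-value, 2 log10 columns for p and false discovery rate (each handled as a score) and a fold over input, which is a linear ratio of unstated scaling. False discovery rates reached at most 0.0490 in replicate 1 and 0.0479 in replicate 2, so peaks below the authors' threshold are not listed, and depth is unknown.

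Names were looked up in RefSeq (GRCh38.p14) by symbol or synonym within 2000 nt. All 113 SLC peaks matched, 2 names through a synonym. Peaks were paired strand by strand, keeping mutually best overlaps. The search was run on 4000 simulated peaks, of which 58.6% were truly paired and 58.6% were found. These peaks lay far apart and every true partner overlapped by design. The run thus checked the code only, and adjacent or split peaks were not covered. Starts and sequences came from RefSeq, and the sequence tables held a start for every gene whose window is printed. Coordinates are 1-based.

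No test across genes or replicates was run, since 2 tables of peaks past a threshold give none; shares have Wilson intervals for counting error only. Members, substrate groups and comparison lists were chosen with earlier results of these data known. Genes named are the 10 highest and 3 lowest by the lower fold of both replicates, those with the most shared peaks, up to 3 for each substrate group, the 3 highest of each replicate alone, the 3 widest gaps and 10 fixed genes. Others were named after their values were seen, and 1 gene is not reported here. Alternatives were other overlap rules, stricter peaks, other start windows, other member sets and each replicate left out. Tools were pandas 2.3.3, numpy 2.4.6, scipy 1.17.1 and, for plots, matplotlib 3.10.9, under Python 3.11.15.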

Additional observations from a re-analysis of the deposited data

How the results depend on the processing

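The counts shrank with stricter peaks, by construction: among the more significant peaks (those past each table's median p) there were 19 shared SLC peaks on 18 genes, with 76.0% of replicate 2 peaks shared, and with only peaks of 4-fold or more there were 15 on 14 genes, with 50% of replicate 1 peaks shared and a median log2 fold of 3.07. Shared genes numbered 28 with 50% reciprocal overlap (SLC25A23, SLC25A28, SLC30A5 and SLC39A1 no longer shared) and 32 with midpoints within 100 nt. The SLC median log2 fold exceeded that of other shared peaks by 0.04. This difference was -0.02 with 50% reciprocal overlap, -0.01 with midpoints within 100 nt, -0.09 among the more significant peaks, 0.16 with peaks of 4-fold or more, 0.10 without folds at whole multiples and, added after seeing the data, 0.06 without genes that have annotated pseudogene copies under their own symbol (SLC6A8 kept), so its sign is not settled. Leaving out 1 replicate and using all peaks of the other gave 0.10 to 0.13, a median log2 fold of 1.93 to 2.18, 43 to 47 genes and 29.1 to 29.3% near the gene start. With a window of 100 nt, 8.33% of shared SLC peaks were near the gene start, and with 500 nt 44.4%. No paired analysis was possible because no result comes from a test and only the 2 IP tables were used. Without read counts, single folds have no interval.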
